A study of Homo sapiens with 8 samples.

Results

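The box H/ACA small nucleolar RNAs are the 118 gene symbols that begin with SNORA and a digit and whose mean level over the 4 input libraries was above 0, out of 26830 symbols in the table. The table holds 133 such symbols, and the other 15 were listed at 0 in every input. The rule used the mean input level only, so input levels are given as a description. The difference between guides was not itself a criterion, but the mean covers both groups, so a gene at 0 in sgNS could enter through the sgMETTL16 inputs. Of the 118 members, 111 were above 0 in the sgNS input. The member with the lowest mean was SNORA110, at 0.03 TPM over the 4 inputs, and SNORA9, which lies just outside, had 204.55 TPM in 1 footprint library and was at 0 elsewhere. All 118 members matched a RefSeq gene by symbol; they lie on 22 chromosomes and are 86 to 250 bases long, with a median of 134.

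A box H/ACA snoRNA folds into a pair of hairpins joined by a hinge that carries the H box and closed by a tail that carries the ACA box. It is cut out of the intron of a host gene and is bound by dyskerin (DKC1), NHP2, NOP10 and GAR1, and the particle turns chosen uridines of ribosomal RNA into pseudouridine. A few members, such as SNORA73A and SNORA73B (the U17 RNAs), act in the cleavage of precursor ribosomal RNA instead. Mature snoRNAs stay in the nucleolus and are not translated, so reads on them in a footprint library do not measure translation.

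The METTL16-targeted cells carried 1 of 3 guides, named sgMETTL16-1, sgMETTL16-2 and sgMETTL16-3, while the control cells carried a negative control guide (sgNS), with 1 input and 1 footprint library for each guide. A culture below means the cells of 1 guide, since the labels do not say whether both libraries came from the same dish. The submitters describe all 4 cultures as a single Cas9-expressing clone of HEK293T, a human embryonic kidney line. All were selected with blasticidin and puromycin and given cycloheximide, which stalls ribosomes, before lysis. Input RNA and ribosome footprints (17 to 34 nt) were sequenced after depletion of ribosomal RNA. METTL16 methylates U6 small nuclear RNA and MAT2A mRNA, and its own mRNA was at 4.72, 5.25 and 4.16 TPM in the sgMETTL16 inputs, against 5.31 TPM in the sgNS input (limma adjusted p = 0.482), so its loss was not shown at the RNA level. The label HEK293T was not borne out by markers: 6 of 13 HEK293 markers were under 1 TPM in all inputs, with NEFL, NEFM and VIM at 0, and 2 reached 10 TPM in every input, while each of 12 hepatocyte markers reached 10 TPM or more in every input library. No marker of either list passed the threshold of the input fit, summed HEK293 markers ranged from 1194 to 1348 TPM in sgMETTL16 inputs, against 698 TPM in sgNS, and summed hepatocyte markers ranged from 6258 to 10043 TPM in sgMETTL16 inputs, against 5668 TPM in the sgNS input. In such bulk samples, fewer cells of a type and less RNA per cell cannot be told apart.

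No sequence table used here holds whole snoRNAs, but 5 members overlap a microRNA gene whose hairpin is in RefSeq (GRCh38.p14), and these hairpins show parts of the members themselves. They are shown because SNORA81 is the member with the greatest change, and because SNORA36A (log2 change 1.66), SNORA36B (1.59) and SNORA84 (1.65) also rose; SNORA2C (0.91) did not pass. In the first 3, capitals mark an ACA that ends 3 bases before the 3′ end of the snoRNA, the place of the ACA box. In the last 2, which cover the 5′ part of the snoRNA, capitals mark every match to ANANNA, the form of the H box, inside the snoRNA.
SNORA36A (hairpin of MIR664B, chrX:154768596-154768656, plus strand): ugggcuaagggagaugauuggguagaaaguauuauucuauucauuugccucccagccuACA
SNORA36B (hairpin of MIR664A, chr1:220200538-220200619, minus strand): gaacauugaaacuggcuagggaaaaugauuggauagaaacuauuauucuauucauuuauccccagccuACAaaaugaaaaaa
SNORA84 (hairpin of MIR3651, chr9:92292458-92292547, minus strand): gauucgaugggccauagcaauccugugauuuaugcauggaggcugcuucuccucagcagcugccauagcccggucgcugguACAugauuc
SNORA81 (hairpin of MIR1248, chr3:186786672-186786777, plus strand): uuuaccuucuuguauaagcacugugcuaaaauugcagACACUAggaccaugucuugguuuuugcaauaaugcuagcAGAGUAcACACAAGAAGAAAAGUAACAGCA
SNORA2C (hairpin of MIR1291, chr12:48654444-48654530, minus strand): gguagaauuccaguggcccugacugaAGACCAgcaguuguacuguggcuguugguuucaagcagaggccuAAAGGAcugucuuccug
The hairpins share 61, 74, 87, 102 and 75 bases with their snoRNA in that order. The motifs were searched on the printed strand only, overlapping matches to ANANNA were allowed, and the strand of the snoRNA was taken from the hairpin. Both motifs are short: 63.0% of the 1562 hairpins in RefSeq hold ACA somewhere and 57.7% hold ANANNA. The microRNA genes had little input signal of their own, as MIR1248, MIR1291 and MIR664B were at 0 in all 4 inputs and MIR664A was at 0 in the 3 sgMETTL16 inputs and at 0.71 TPM in sgNS. MIR3651 was at 63.5, 39.2 and 58.7 TPM in the sgMETTL16 inputs, against 24.9 TPM in sgNS, so reads of SNORA84 may be divided between both genes and its own level is uncertain.

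TPM divides reads by transcript length and scales each library to a fixed total. For snoRNAs of 100 bases or more, 117 members among them, TPM was multiplied by the RefSeq length less 50 bases. In each input library most low values of this product lay near whole multiples of 1 step. Within 0.1 of a step were 85.0% to 97.8% of the 20 to 45 values under 8.5 steps, members and other snoRNAs together. The step was chosen for the closest fit to whole numbers, so these percentages are not an independent check. A step has the size that 1 read would give, and at the median length it was 0.320, 0.314 and 0.265 TPM in the sgMETTL16 inputs, against 0.237 TPM in sgNS. Over the 117 members the inputs held 23005, 23624 and 30261 steps in the sgMETTL16 cultures, against 11010 in sgNS. The median member above 0 stood at 62.1, 61.0 and 76.9 steps in the sgMETTL16 inputs, against 24.5 steps in sgNS. Most input values therefore rest on many steps, and those of the lowest members on a few.

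The members together held 0.554%, 0.550% and 0.586% of input TPM in the sgMETTL16 cultures, against 0.204% in sgNS. The sgMETTL16 mean of 0.563% ± 0.0201 (SD, n = 3) was 2.76 times the sgNS value, and all 3 cultures stood above it; with 1 sgNS library the spread among control cells is unknown. The 5 members with the highest mean input level held 32.5% to 35.4% of the members' TPM in sgMETTL16 inputs, against 28.9% in sgNS. These were SNORA73A, SNORA73B, SNORA81, SNORA63 and SNORA74A. Of all members, 106 were above 0 in all 4 inputs, 72 had a mean input level of 10 TPM or more and 13 of 100 TPM or more.

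The input comparison asks which snoRNAs differed in abundance between METTL16-targeted and control cells, and 88 of 103 tested H/ACA snoRNAs lay on the higher side in the targeted cells. In the same fit 43.0% of all tested genes had a log2 change above 0. Of the 103 members with a mean input level of 1 TPM or more, 42 rose and 2 fell past a limma adjusted p of 0.05, where 1.58% of all 10967 tested genes rose and 1.25% fell (2.83% in either direction). The filter took the mean over all 4 inputs, so tested members under 1 TPM in sgNS reached it through the sgMETTL16 inputs. Among those that rose were SNORA32 (0.28 TPM in sgNS), SNORA36A (0.75), SNORA36B (0.76) and SNORA28 (0.79), and also SNORA58, SNORA71E and SNORA72. Their place in the count depends in part on the change itself. The median log2 change of tested members was 1.06 (quartiles 0.40 and 1.56), against -0.06 for all tested genes. Single guides gave medians of 0.98 for sgMETTL16-1, 0.81 for sgMETTL16-2 and 1.43 for sgMETTL16-3, and as all share the lone control library, these are not independent. All 42 rises were seen in each of the 3 cultures. On TPM as deposited, 90 of the 103 tested members were above sgNS in all 3 sgMETTL16 inputs, 2 were below it in all 3 and 11 overlapped, where 64.1% of all tested genes were above and 5.37% below. The fit used log2(TPM + 1), with each library centred on its median gene and the lone sgNS library assumed to vary like the sgMETTL16 libraries. On TPM as deposited, without centring, 8 members and 23 of all 10967 genes were called, and the median gene moved to 0.46 and the median member to 1.59. Centred on the median box C/D snoRNA, limma called 0 of all genes, members included. The median member was then at 1.19 and the median gene at 0.06. In that fit 77 members had an unadjusted limma p under 0.05. The share of all genes under this unadjusted cut was not counted, here or below. Without sgMETTL16-1 the fit called 21 members and 110 of all 10847 genes. Every call named in the text was therefore lost with the box C/D centring.

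**Figure D1:**
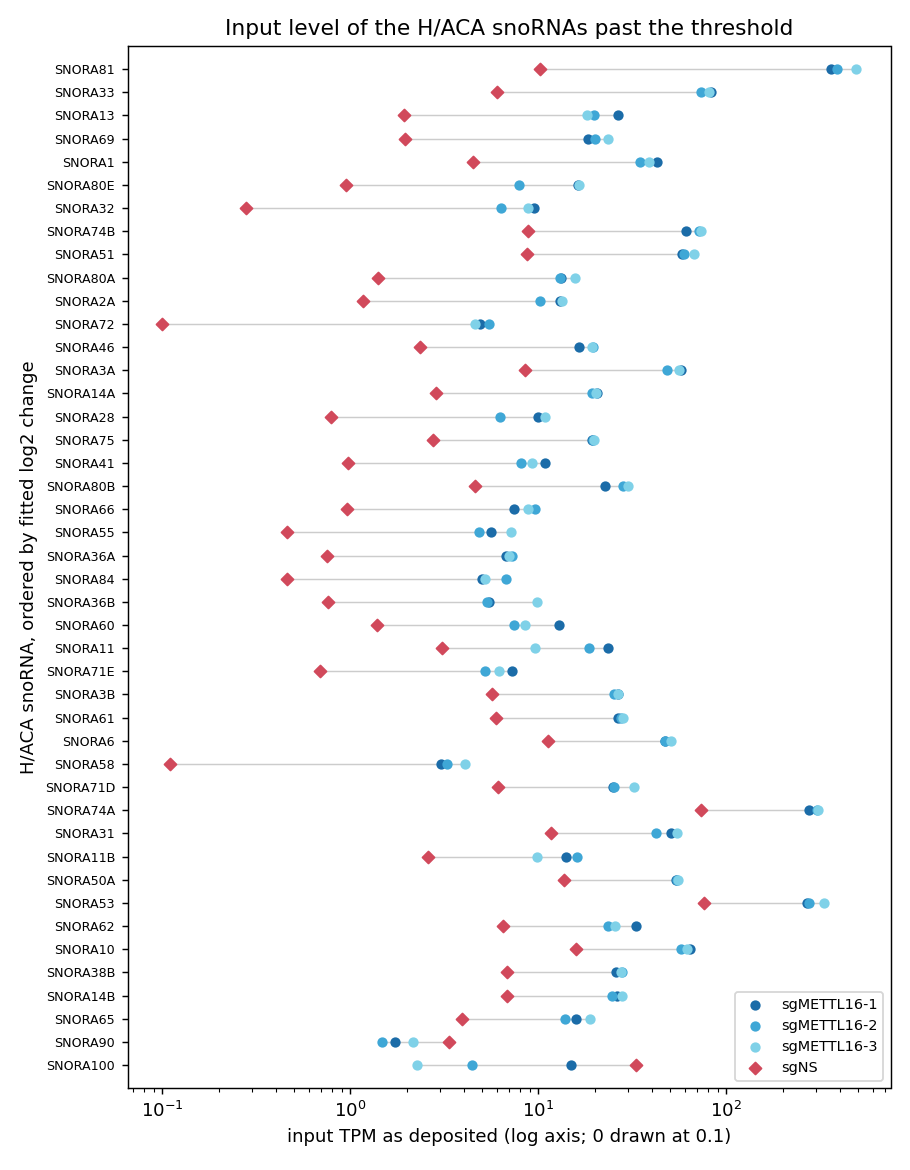
Input TPM as deposited (log axis) of the 44 H/ACA snoRNAs past the threshold, 1 row each, ordered by fitted log2 change; circles are the sgMETTL16 cultures and diamonds the sgNS culture, and SNORA72, at 0 in sgNS, is drawn at 0.1. In 42 rows the 3 circles lie to the right of the diamond, and in SNORA90 and SNORA100 they lie to its left.

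SNORA81, a guide for pseudouridylation of ribosomal RNA that also carries miR-1248, stood furthest above the control. It was at 361, 387 and 488 TPM in the sgMETTL16 inputs, against 10.3 TPM in sgNS. Its sgMETTL16 mean of 412 ± 67.2 TPM (SD, n = 3) was 40.2 times the sgNS value, and the fitted log2 change was 4.66 (SE 0.42, limma adjusted p = 2.07e-24). In sgNS the value corresponds to 65.4 steps, so the control level was well above the lowest detectable one. It passed under every alternative tried except centring on box C/D snoRNAs (4.78, adjusted p = 0.0624).

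SNORA81 shares its host with SNORA63 and SNORA4, neither of which passed the test. SNORA63, also called E3, was at 304, 281 and 275 TPM in the sgMETTL16 inputs, against 166 TPM in sgNS. SNORA4 was at 16.4, 21.9 and 22.5 TPM in the sgMETTL16 inputs, against 9.83 TPM in sgNS. On TPM as deposited both were above sgNS in all 3 sgMETTL16 inputs, as were 64.1% of all tested genes. The log2 changes of 0.25 (SE 0.43) for SNORA63 and 0.43 (SE 0.38) for SNORA4 did not pass, with limma adjusted p = 0.941 and 0.813. The host is EIF4A2, which encodes an RNA helicase of translation initiation and was at 24.8, 45.1 and 13.0 TPM in the sgMETTL16 inputs, against 12.8 TPM in sgNS (log2 change 0.36, limma adjusted p = 0.869). The 3 snoRNAs lie within the same gene on chromosome 3 (SNORA81 at 186786676 to 186786852, SNORA63 at 186787299 to 186787433 and SNORA4 at 186787613 to 186787749, GRCh38.p14), yet their log2 changes ranged from 0.25 to 4.66. The difference between them was not tested.

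TAF1D, which encodes a subunit of the factor that recruits RNA polymerase I, spans 6 members, the most of any host. Its own log2 change was -0.04 (limma adjusted p = 0.994), with 6.27, 11.2 and 3.96 TPM in the sgMETTL16 inputs, against 4.42 TPM in sgNS. SNORA1 rose, at 42.7, 34.7 and 38.6 TPM in the sgMETTL16 inputs, against 4.48 TPM in sgNS (log2 change 2.32, SE 0.39, limma adjusted p = 6.24e-07). SNORA32 rose too, at 9.47, 6.32 and 8.77 TPM in the sgMETTL16 inputs, against 0.28 TPM, or 1 step, in sgNS (log2 change 2.30). SNORA8 (1.08), SNORA25 (0.92), SNORA18 (0.82) and SNORA40 (0.60) did not pass. SNORA8 passed with a filter at 5 TPM (1.13), with quantile normalization (1.13) and without sgMETTL16-2 (1.24). SNORA18 passed with quantile normalization (0.94) and without sgMETTL16-3 (1.13), SNORA40 with quantile normalization (0.82) and SNORA25 without sgMETTL16-3 (0.96). SNORA40 was the most abundant of the 6, at 219, 235 and 238 TPM in the sgMETTL16 inputs, against 105 TPM in sgNS, and SNORA18 was split among the sgMETTL16 inputs, at 76.1, 71.9 and 25.8 TPM, against 19.9 TPM in sgNS. All 6 stood higher in each sgMETTL16 input than in sgNS on TPM as deposited, as did 64.1% of all tested genes.

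The promoters of these hosts are printed because 9 members of very different change lie in these genes, 3 in EIF4A2 and 6 in TAF1D. Each runs from 250 bases before to 50 after the RefSeq start (GRCh38.p14), and the first 5 transcribed bases are in capitals.
EIF4A2 (chr3:186783327-186783626, plus strand): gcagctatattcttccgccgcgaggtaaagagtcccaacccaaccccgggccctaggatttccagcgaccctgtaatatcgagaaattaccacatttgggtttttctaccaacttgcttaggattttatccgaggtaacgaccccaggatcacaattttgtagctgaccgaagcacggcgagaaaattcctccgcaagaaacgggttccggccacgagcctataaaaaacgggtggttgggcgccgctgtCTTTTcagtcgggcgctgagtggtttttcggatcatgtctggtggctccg
TAF1D (chr11:93741446-93741745, minus strand): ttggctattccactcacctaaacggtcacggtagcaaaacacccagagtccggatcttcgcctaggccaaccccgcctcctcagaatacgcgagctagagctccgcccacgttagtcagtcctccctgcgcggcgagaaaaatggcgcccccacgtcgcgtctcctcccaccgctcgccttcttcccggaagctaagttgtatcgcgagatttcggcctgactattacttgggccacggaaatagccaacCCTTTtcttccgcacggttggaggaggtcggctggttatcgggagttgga
Both begin with C followed by 4 bases that are C or T, the start typical of mRNAs with a terminal oligopyrimidine tract, a class that includes many snoRNA hosts. Of the 72 hosts with a promoter in RefSeq, 16 (22.2%) begin so, against 4.04% of the 27305 promoters in the table, on the transcribed strand. The 26 tested members in such hosts had a median log2 change of 1.27, and the 57 in the other hosts 1.03.

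No host gene passed the test in the input, where few genes outside the small RNAs did. A single annotated gene spans each of 111 members (85 hosts), 5 members lie in several overlapping genes and 2 in none, by position alone since the strand of the snoRNAs was not read. Of the 70 hosts tested with a tested member, limma called 0 in either direction, where 0.83% of tested genes other than small RNAs rose and 0.98% fell. At shares this low, 0 calls among 70 hosts does not set them apart. Of these hosts 7 were at an unadjusted p under 0.05, and their median log2 change was -0.15, with 23 above 0. Of 93 tested members with a tested host, 84 lay above it, by a median of 1.2 on the log2 scale. Across these 93 members the change of the snoRNA and that of the host correlated at r = 0.09 (Pearson) and rho = 0.11 (Spearman), a description over genes that share the same 4 libraries. Of all tested genes, 1.58% rose and 1.25% fell. Hosts were grouped by gene symbol, so the pseudogene RPL32P3 (log2 change -0.31) counts among the ribosomal protein genes. Members in ribosomal protein genes had a median of 1.27, with 9 of 17 rising, while their hosts had a median of -0.51. Members in long non-coding hosts had a median of 0.70, with 5 of 18 rising, and their hosts a median of -0.45. Members in genes of translation factors (3 of 7 rising) had a median of 1.2 and their hosts one of 0.39, and those in other genes (22 of 54 rising and 2 falling) had a median of 1.08 and their hosts one of -0.02.

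**Figure D2:**
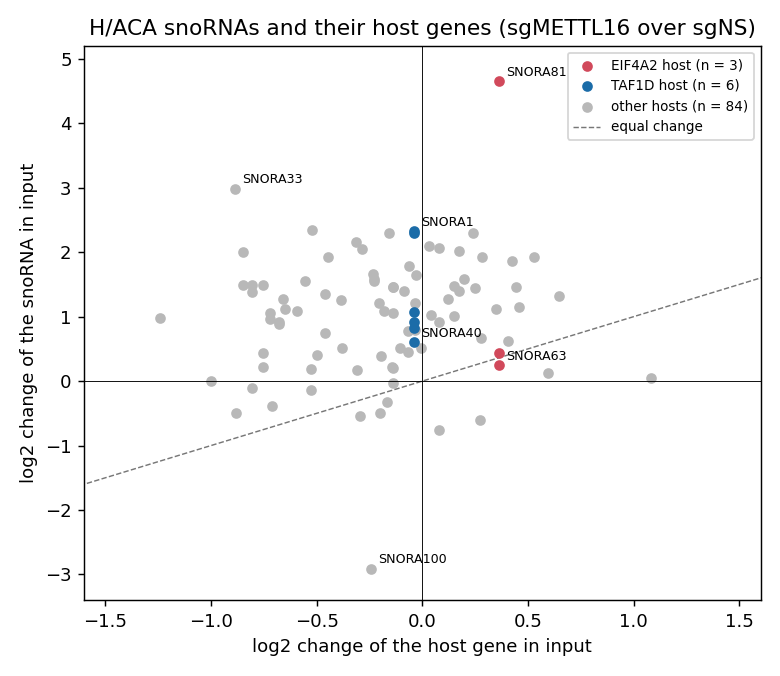
Fitted log2 change of each tested H/ACA snoRNA (vertical) against that of its host gene (horizontal) in the input, sgMETTL16 over sgNS, for 93 snoRNAs; the dashed line marks equal change. Of these snoRNAs, 84 lie above the line, and the 3 of EIF4A2 and the 6 of TAF1D each form a vertical column.

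The next members are given in order of their log2 change at a pseudocount of 1, and the order shifts with that choice: at 0.1, SNORA32 (3.82) lay above SNORA33 (3.09). SNORA58, in MRPL3, was picked out once its values were known: it stood at 3.04, 3.28 and 4.07 TPM in the sgMETTL16 inputs, against 0.11 TPM, or 1 step, in sgNS, and rose by 1.47. SNORA33, within the ribosomal protein gene RPS12, was at 82.7, 72.9 and 81.2 TPM in the sgMETTL16 inputs, against 5.99 TPM in sgNS (log2 change 2.98, SE 0.40, limma adjusted p = 5.61e-11). RPS12 itself was at 312, 317 and 166 TPM in the sgMETTL16 inputs, against 326 TPM in sgNS (log2 change -0.89, limma adjusted p = 0.414). SNORA13, which acts in p53-dependent senescence, was at 26.6, 19.8 and 18.2 TPM in the sgMETTL16 inputs, against 1.92 TPM in sgNS (log2 change 2.40). In both snoRNAs every sgMETTL16 input was several times the control value. SNORA69, in RPL39, rose by 2.34 and SNORA80E, once named SNORA42 and studied in lung cancer, by 2.30. SNORA74B, in ATP6V0E1, rose by 2.30, SNORA51, in the box C/D core protein gene NOP56, by 2.15, and SNORA80A, in URB1, by 2.10. In each of these the 3 sgMETTL16 inputs stood above sgNS on TPM as deposited, as in 64.1% of all tested genes. On TPM as deposited the calls of SNORA13 (2.93), SNORA32 (2.83), SNORA69 (2.87), SNORA80A (2.63) and SNORA80E (2.83) were lost, while SNORA81, SNORA33, SNORA1, SNORA51 and SNORA74B passed. Of 7 members at 0 in the sgNS input, SNORA72, in RPL30, was the one that reached the 1 TPM filter, and it did so through the sgMETTL16 inputs. It was at 4.92, 5.48 and 4.61 TPM in sgMETTL16 cells, so its mean was at least 6.87-fold higher than the level that 3 steps in the sgNS library would give. The means of the other 6 in sgMETTL16 inputs were 0.44 to 1.14 times that level.

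SNORA31, whose variants have been linked to herpes simplex encephalitis, was chosen for mention after its values were seen. It was at 51.0, 42.4 and 54.9 TPM in the sgMETTL16 inputs, against 11.6 TPM in sgNS, and rose by 1.46 (SE 0.39, limma adjusted p = 0.0103). SNORA24, studied in liver cancer and named for the same reason, was at 105, 81.2 and 79.3 TPM in the sgMETTL16 inputs, against 85.7 TPM in sgNS, so that the groups overlapped. Its log2 change was -0.49 (limma adjusted p = 0.787).

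Both U17 RNAs, which act in ribosomal RNA cleavage, had the highest mean input levels of all members. SNORA73A was at 486, 504 and 579 TPM in the sgMETTL16 inputs, against 191 TPM in sgNS. SNORA73B, in the same host SNHG3, was at 375, 395 and 424 TPM in the sgMETTL16 inputs, against 148 TPM in sgNS. Both stood well above sgNS in every sgMETTL16 input, but their log2 changes of 0.92 and 0.89 did not pass (limma adjusted p = 0.404 and 0.417), and did with quantile normalization (1.29 and 1.16). SNORA74A, also called U19, was at 274, 304 and 309 TPM in the sgMETTL16 inputs, against 73.3 TPM in sgNS, and rose by 1.47 (SE 0.43, limma adjusted p = 0.0263), a call lost without sgMETTL16-1 (1.57), with a pseudocount of 0.1 (1.40) or 0.5 (1.43), rescaled without small RNAs (1.36) or centred on box C/D snoRNAs (1.59). SNORA62, also called E2 and found in RPSA, was at 33.1, 23.4 and 25.7 TPM in the sgMETTL16 inputs, against 6.50 TPM in sgNS, and rose by 1.38 (SE 0.38, limma adjusted p = 0.0154), a call lost without sgMETTL16-1 (1.29), rescaled without small RNAs (1.37), on TPM as deposited (1.91) or centred on box C/D snoRNAs (1.5).

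SNORA100 and SNORA90 were the members that fell. SNORA100 lies in HNRNPU, which encodes a nuclear RNA-binding protein, and was at 14.9, 4.43 and 2.27 TPM in the sgMETTL16 inputs, against 33.2 TPM in sgNS. The 3 sgMETTL16 inputs were below the control but spread widely among themselves, with a mean of 7.20 ± 6.75 TPM (SD, n = 3). Its fitted log2 change of -2.91 had an SE of 0.37 and a limma adjusted p = 7.08e-12. The SE came from the typical spread at that level, not from this spread. HNRNPU was at 37.7, 45.1 and 24.4 TPM in the sgMETTL16 inputs, against 28.2 TPM in sgNS. SNORA90, in ACACA, was at 1.72, 1.48 and 2.14 TPM in the sgMETTL16 inputs, against 3.34 TPM in sgNS, and fell by 1.18 on the log2 scale (limma adjusted p = 0.0109), a call lost without sgMETTL16-1. Both lost their call on TPM as deposited, where SNORA100 was at -2.38 and SNORA90 at -0.65. The next lowest by p, SNORA2B (-0.76), SNORA91 (-0.60) and SNORA103 (-0.49), did not pass, and the groups overlapped in each. Without sgMETTL16-3, SNORA2B (-1.01) and SNORA91 (-1.01) passed, while SNORA2B was at -0.27 without sgMETTL16-2 and SNORA91 at -0.22 without sgMETTL16-1.

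Copies within a family differed in level and in whether they passed; differences between copies were not tested. In the SNORA71 family, SNORA71A to SNORA71D lie in SNHG17 and SNORA71E in SNHG11. SNORA71A, the most abundant, was at 53.8, 46.3 and 51.6 TPM in the sgMETTL16 inputs, against 35.5 TPM in sgNS, and SNORA71C at 26.6, 40.0 and 43.2 TPM, against 21.3 TPM in sgNS; neither passed. SNORA71D was at 25.1, 25.2 and 32.1 TPM in the sgMETTL16 inputs, against 6.10 TPM in sgNS, and rose by 1.47, and SNORA71E was at 7.20, 5.23 and 6.21 TPM, against 0.69 TPM in sgNS, and rose by 1.56. Both calls were lost without sgMETTL16-1 (1.58 and 1.51) and on TPM as deposited (1.99 and 2.08). SNORA71B (1.06) did not pass here, but passed with a filter at 5 TPM (1.11), with quantile normalization (1.12) and without sgMETTL16-3 (1.18). In the SNORA70 family only SNORA70, in RPL10, was above 10 TPM: it was at 41.5, 37.6 and 33.8 TPM in the sgMETTL16 inputs, against 25.5 TPM in sgNS, and SNORA70G was at 1.75, 0.86 and 1.21 TPM, against 0.43 TPM in sgNS. Such a position above sgNS on TPM as deposited held for 64.1% of all tested genes. After centring, the log2 changes of 0.009 for SNORA70 and 0.12 for SNORA70G did not pass (limma adjusted p = 0.998 and 0.963). SNORA70B, SNORA70D, SNORA70E and SNORA70F were under 1 TPM in every input. Copies can share reads, so single family members are uncertain: SNORA11D and SNORA11E, and SNORA59A and SNORA59B, carried identical values in all 8 libraries.

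Of 13 other listed RNAs of the H/ACA class, 12 Cajal body RNAs and the telomerase RNA TERC, 8 rose in the input, none fell and 5 did not pass, where 1.58% of all tested genes rose; their median log2 change was 1.22. SCARNA8 was at 47.2, 33.9 and 40.4 TPM in the sgMETTL16 inputs, against 3.93 TPM in sgNS (log2 change 2.53), and SCARNA16 at 493, 498 and 521 TPM, against 95.4 TPM in sgNS (log2 change 1.86). The other RNAs that rose were SCARNA4 (1.88), SCARNA11 (1.75), SCARNA14 (2.35), SCARNA15 (1.22), SCARNA18 (2.16) and SCARNA20 (1.18). SCARNA15 was at 2.22, 3.13 and 1.87 TPM in the sgMETTL16 inputs, against 0 in sgNS. SCARNA14 was at 7.42, 9.73 and 7.16 TPM, against 0.23 TPM in sgNS. Both reached the 1 TPM filter through the sgMETTL16 inputs, so their place among the 8 depends on the change itself. SCARNA1 (0.59), SCARNA21 (0.69), SCARNA22 (0.76) and SCARNA23 (0.22) did not pass. TERC was at 283, 277 and 300 TPM in the sgMETTL16 inputs, against 222 TPM in sgNS, with a log2 change of -0.16 after centring that did not pass (limma adjusted p = 0.968). None of the mRNAs of the 4 core proteins passed: DKC1, the pseudouridine synthase, was at -0.23, NHP2 at -0.96, NOP10 at -0.42 and GAR1 at -0.88. In limma's input fit none of 7 assembly factors passed either (NAF1, SHQ1, NUFIP1, RUVBL1, RUVBL2, NOLC1 and TCOF1), with log2 changes between -0.50 and -0.01. Of all tested genes, 2.83% passed in either direction. DKC1 is itself the host of SNORA36A, which was at 6.73, 7.27 and 6.95 TPM in the sgMETTL16 inputs, against 0.75 TPM in sgNS, and rose by 1.66.

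Length of the RNA moved with the change in the input. Tested structural RNAs outside the members (box C/D, Cajal body, spliceosomal, vault, Y and 7S RNAs and their like) had a median log2 change of -0.83 from 50 to under 80 bases, with 2 of 49 rising and 15 falling. From 80 to under 100 bases the median was 0.11 (10 of 62 rising and 4 falling), and from 100 to under 120 bases it was 1.54 (10 of 18 rising). Gene copies that can share reads count separately in these bands. SNORD116-17 and SNORD116-19, for example, were both at -0.88, and RNU1-1 to RNU1-4, of 164 bases, were each at 0.87. From 120 to under 200 bases, the range of 94 of the 103 tested members, the others had a median of 0.97, with 14 of 37 rising and 1 falling, and the members one of 1.06, with 38 rising and 2 falling. From 200 to under 400 bases the 19 others had a median of -0.49 with 3 rising, while the 8 members there had a median of 1.33 with 4 rising. Box C/D snoRNAs as a class divided evenly, with 20 of 133 rising and 20 falling and a median of -0.10. Over all tested genes, 1.58% rose and 1.25% fell. By sums, spliceosomal RNAs held 4.69%, 4.03% and 4.75% of TPM in the sgMETTL16 inputs, against 1.11% in sgNS, and the 7SL and 7SK RNAs 55.9%, 55.2% and 60.5%, against 67.1% in sgNS. The single sgNS library differed from all 3 others in this respect, and guide and library cannot be told apart with 1 control library. The part of RNA length in the rise of the members was not tested.

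**Figure D3:**
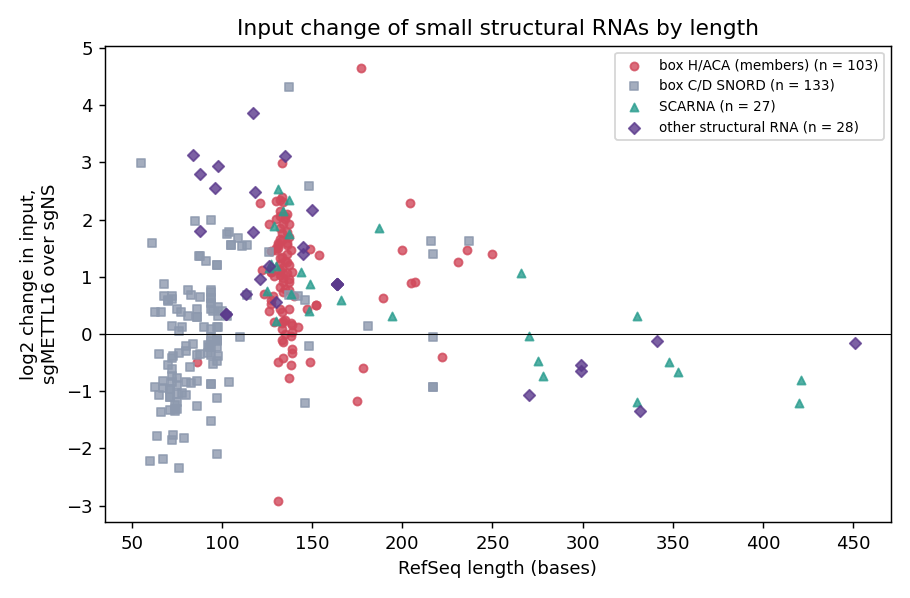
Fitted log2 change in the input (sgMETTL16 over sgNS) of tested small structural RNAs against their RefSeq length in bases, 1 point per gene. The 103 H/ACA snoRNAs cluster between 120 and 200 bases, where other RNAs also lie mostly above 0, and RNAs of 50 to under 80 bases lie mostly below it.

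Members were also grouped by mean input level, which includes the sgMETTL16 inputs, so that the change itself helps to set the group; the groups were not tested against each other. For comparison, 1.58% of all tested genes rose and 1.25% fell. The 20 tested members with a mean input level of 1 to 5 TPM had a median log2 change of 0.22, with 5 rising and 1 falling. The 33 members from 5 to 20 TPM had a median of 1.44 with 18 rising and 1 falling, the 37 from 20 to 100 TPM a median of 1.12 with 16 rising, and the 13 at 100 TPM or more a median of 0.89 with 3 rising. On the log2(TPM + 1) scale the change of low members is understated. As plain ratios of the sgMETTL16 mean to sgNS on deposited TPM, the medians of these groups were 2.58, 5.16, 3.34 and 2.68.

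In the footprint libraries the members were sparse and uneven. They held 1.03%, 2.09% and 4.84% of footprint TPM in sgMETTL16-1, sgMETTL16-2 and sgMETTL16-3, against 1.61% in sgNS, so that the groups overlapped. Of 118 members, 69 were at 0 in all 4 footprint libraries and 4 were above 0 in all, and 18, 27 and 34 members were above 0 in the sgMETTL16 libraries, against 18 in sgNS. The step of these libraries was far larger: at the median length it was 295, 203 and 287 TPM in the sgMETTL16 libraries, against 566 TPM in sgNS. Over members of 100 bases or more the libraries held 37.7, 115 and 172 steps in the sgMETTL16 cultures, against 31 in sgNS. A single step was the whole value of 9, 11 and 16 members in the sgMETTL16 libraries, against 11 members in sgNS, and such values cannot be told from 0 at this depth.

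No member passed in the footprint comparison. Of 49 members with a mean footprint level of 1 TPM or more, 0 were called, as were 0% of all 9297 tested genes with limma, and 10 of the 49 had an unadjusted p under 0.05 (lowest limma adjusted p = 0.390). The median tested gene was not at 0 in this fit but at -1.28, and at 0.85 on TPM as deposited, with the median member at 0.51 and 2.64. Without sgMETTL16-1 the fit called 11 members, 8 higher and 3 lower, among 122 of 8575 genes. Without sgMETTL16-2 it called 14 members, 5 higher and 9 lower, among 130 of 8174 genes, so the balance of directions was not the same. SNORA63 had the highest mean, at 584, 2608 and 14208 TPM in the sgMETTL16 libraries, which correspond to 2, 13 and 50 steps, while it was at 0 in sgNS. SNORA66, in the overlapping genes RPL5 and DIPK1A, was at 298, 818 and 8411 TPM in the sgMETTL16 libraries, against 1714 TPM in sgNS. The sgMETTL16-3 library was highest for both, and the groups overlapped for SNORA66. SNORA3A and SNORA3B, both in RPL27A, were at 1841, 2108 and 3591 TPM and at 0, 1669 and 4442 TPM in the sgMETTL16 libraries, against 589 and 1167 TPM in sgNS. SNORA50C was at 1190, 2455 and 0 TPM in the sgMETTL16 libraries, against 2286 TPM in sgNS. Only SNORA3A of these last 3 was above the control in every sgMETTL16 library. SNORA81, the member that rose most in the input, was at 0, 0 and 198 TPM in the sgMETTL16 footprints, against 0 in sgNS.

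**Figure D4:**
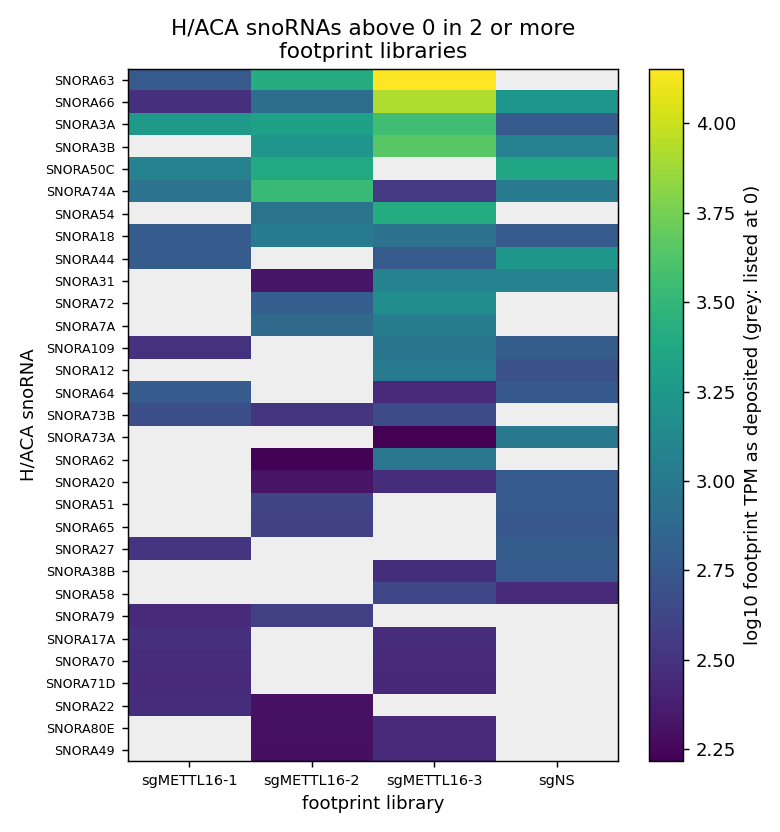
Footprint TPM as deposited (colour, log10 scale; grey means listed at 0) of the 31 H/ACA snoRNAs above 0 in 2 or more footprint libraries, in rows, for the 3 sgMETTL16 libraries and the sgNS library, in columns. Grey cells are common in every column, and the brightest cell is SNORA63 in sgMETTL16-3, at 14208 TPM.

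The ratio of footprints to input, which for a snoRNA does not measure translation, was compared by testing whether the effect of the guides differed between footprints and input. Of 49 members tested, 0 were called, as were 0% of all 8002 tested genes with limma, and 3 members had an unadjusted p under 0.05 (lowest limma adjusted p = 0.539). Without sgMETTL16-1 the fit called 2 members, among 21 of 7427 genes. With the culture as a block, 0 were called as well. The members' share of TPM was higher in footprints than in the input of every culture, at 1.03% against 0.554% in sgMETTL16-1, 2.09% against 0.550% in sgMETTL16-2, 4.84% against 0.586% in sgMETTL16-3 and 1.61% against 0.204% in sgNS. Box C/D snoRNAs held far more of the footprints, at 18.8%, 27.2% and 35.0% in the sgMETTL16 libraries, against 19% in sgNS. These shares are given as a description, since the members were chosen by their input level.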

How the data were processed

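Per the submitters' processing notes, reads were processed with STAR (no version is stated in the sources used here) and RSEM 1.2.31 on GRCh38. The authors deposited TPM per gene symbol for 4 input and 4 footprint libraries; their filters are not stated. The reads were 51 bases, single-end. From these values, genes with a mean of 1 TPM or more were fitted with limma 3.58.1 (R 4.3.3) on log2(TPM + 1), over the whole table, with libraries centred on the median gene, an intensity trend and Benjamini-Hochberg adjustment, at a threshold of 0.05. In the input the prior degrees of freedom were Inf, so genes were judged by the typical spread at their level. The p-values measure the spread between 3 cultures that carry different guides, which may be partly technical. The footprint-to-input fit took genes at 1 TPM or more in both kinds of library; input and footprints of the same guide were paired in the block fit, since the labels share the guide's name, though they do not say that both came from the same dish. The fit was also run on simulated inputs with the same independent spread for every gene and library. These held no control library that deviates by RNA length, so the simulation cannot check the calls against that. Steps were found from TPM and RefSeq length, after subtracting 50 bases in inputs and a fitted 32 to 36 in footprints; they entered no test. Hosts were assigned by span without strand, since the annotation table gives none. Members and lists were chosen with earlier results of these data known. Named members were the 5 highest in input and in footprints, up to 10 called in each direction, listed classical members, and the SNORA70 and SNORA71 families. Alternatives were other pseudocounts, filters, centrings and moderation, and leaving out each sgMETTL16 culture. Python 3.11.15 and pandas 2.3.3 were used.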

Additional observations from a re-analysis of the deposited data

How the results depend on the processing

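The input count of called members was 44. It was 8 on TPM as deposited, 0 when centred on the median box C/D snoRNA, and between 21 and 56 when 1 sgMETTL16 culture was left out. Of the 42 members that rose, all 42 were above 0 in each of these settings, 20 were called without sgMETTL16-1, and all 42 without sgMETTL16-2 or without sgMETTL16-3. The other settings gave between 37 and 65 called members, within 1.5 times of 44. The footprint count was 0 of 49 members in the fit reported. It was 1 with a filter at 5 TPM, where 37 of all 6168 genes were called. It was 1 on TPM as deposited, among 580 of 9297 genes, and 2 with quantile normalization, among 606 of 9297 genes. It was between 0 and 14 when 1 culture was left out: 11 without sgMETTL16-1 and 14 without sgMETTL16-2. The footprint-to-input count, also 0, was 1 with no filter, where 651 of all 20726 genes were called. It was 1 with a filter at 5 TPM, among 92 of 4100 genes, and 1 on TPM as deposited, among 14 of 8002 genes. It was between 0 and 2 when 1 culture was left out. With the culture as a replicate block it was 0. The ratio of summed input levels, 2.76, was 2.57 without the 5 highest members and 2.38 as a share of TPM outside small structural RNAs. RMRP, RPPH1 and TERC stayed in that total, and also in the total used for the fits rescaled without small RNAs. RMRP and RPPH1 together held 8.43%, 8.51% and 8.88% of input TPM in the sgMETTL16 cultures, against 7.66% in sgNS. Of 343 alternative values for 29 single members, 292 kept direction and call, 35 lost the call, 14 gained one and 2 turned: SNORA103 was at 0.040 on TPM as deposited, and SNORA71C was between -0.11 (without sgMETTL16-3) and 0.46 when 1 culture was left out. The cause was not tested. Depth limits the footprint values, most of which are 1 or a few steps.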
